A study of Mus musculus with 9 samples.

Results

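The unfolded protein response (UPR) genes described here are 10 genes of secretory cells under endoplasmic reticulum (ER) stress, taken as a list of names: *Ern1*, *Ern2*, *Creb3l1*, *Xbp1*, *Hspa5*, *Ddit3*, *Atf4*, *Sdf2l1*, *Pdia6* and *Dnajb9*. The list was chosen with earlier results of these data known, so its share of called genes is not independent of them. All 10 are among the 34638 gene entries of the deposited RNA-seq table of mouse lung. The table covers 9 mice in 3 groups of 3: female wild-type C57BL/6 mice given PBS, such mice given recombinant mouse IL-33, and mice given IL-33 together with LM8, an inhibitor of MyD88, the adaptor that carries the signal of the IL-33 receptor. IL-33 was placed in the trachea at 0.5 µg on each of days 0 to 3, LM8 was injected into the peritoneum at 10 mg/kg ahead of IL-33, and lungs of the PBS and IL-33 groups were taken on day 4. The PBS and IL-33 mice were 6 to 8 weeks old; the age and the day of collection of the LM8 group are not given in the sources used here. No group given LM8 alone was analysed here, so the effect of LM8 without IL-33 cannot be told apart from its effect on the response to IL-33.

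The ER folds the proteins that a cell secretes or places in its membrane, and the UPR is the set of signals that adjusts its capacity. 3 sensors sit in the ER membrane: IRE1, PERK and ATF6. IRE1 splices the *Xbp1* transcript into one that encodes an active transcription factor, PERK favours translation of ATF4, and ATF6 is cut to release a transcription factor of its own. In airways the mucus-producing goblet cells carry a form of IRE1, IRE1β, that most tissues lack, and plasma cells depend on *Xbp1* to secrete antibody.

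By their roles, *Ern1* encodes IRE1α, the widely expressed sensor, and *Ern2* encodes IRE1β. *Xbp1*, *Creb3l1*, *Atf4* and *Ddit3* encode transcription factors; the CREB3L1 protein is anchored in the ER membrane, and *Ddit3* encodes CHOP, which acts late in prolonged stress. *Hspa5* encodes BiP, the most abundant ER chaperone, and *Dnajb9* and *Sdf2l1* encode proteins that work with it. *Pdia6* encodes a protein disulfide isomerase. A gene count does not separate spliced from unspliced *Xbp1*, nor does it measure the cleaved or translated proteins, so the values below are transcript levels and not UPR activity.

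The start-site sequences are shown because 2 of the protein-folding genes that were higher after IL-33 hold, in full, the ER stress response element (ERSE), the DNA motif that ATF6 and XBP1 are known to use. RefSeq promoter windows of 300 bases (250 before the start site and 50 after it, GRCm38.p6) were found for 8 of the 10 genes and were not found in the table used for *Ern2* and *Creb3l1*. The letters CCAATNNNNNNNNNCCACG, searched on both strands, occurred in 2 of the 8 windows and in 39 of the 32851 windows of the table (0.119%). In *Hspa5* (chr2:34772015-34772053, GRCm38.p6, plus strand) they lay 65 to 47 bases before the start site, and in *Pdia6* (chr12:17266481-17266519, plus strand) 98 to 80 bases before it. Both stretches are printed 5′ to 3′ with 10 bases on each side, the ERSE letters in capitals.
Hspa5: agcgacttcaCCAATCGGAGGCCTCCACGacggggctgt
Pdia6: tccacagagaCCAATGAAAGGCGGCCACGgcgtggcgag
The 9 bases between the fixed ends differ between the genes, as the N positions of the motif allow. The windows of *Sdf2l1* and *Dnajb9*, the other folding genes higher after IL-33, did not hold the ERSE letters. No window of the 8 genes held ERSE-II (ATTGG and CCACG with 1 base between them, in 0.0365% of all windows), the UPR element TGACGTGG (0.676%) or the ATF4 half-site TGATGNAA (3.97%). A match is only a run of letters, and the absence of one says nothing of whether a factor binds.

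Levels are given as FPKM, the reads of a gene relative to its length and to the size of the library, and differences as log2 fold changes from edgeR's quasi-likelihood test on the deposited counts. A gene was called higher or lower at a Benjamini-Hochberg adjusted p under 0.05 over all genes tested, with 3 mice against 3 in each comparison. The p-values measure the spread between these mice. All 10 UPR genes entered the tests, which kept genes whose FPKM averaged 0.5 or more across the 9 mice; *Ern2* entered only through the 2 groups given IL-33, since its PBS mean was 0.061. Total counts ran from 61767006 to 73869252 in PBS mice, 53877663 to 66029783 in IL-33 mice and 59753648 to 90607218 in IL-33+LM8 mice. Markers of the labelled tissue were abundant in the PBS mice, with mean FPKM of 11030 for *Sftpc* of alveolar type 2 cells, 21499 for *Scgb1a1* of club cells and 176 for the endothelial gene *Cldn5*. In whole lung, more cells of a type and more RNA per cell cannot be told apart.

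In the lungs of PBS mice the UPR genes spanned a wide range of levels. *Hspa5* led with a mean FPKM of 207 ± 11.7 (SD, n = 3). *Pdia6* at 79.3 ± 2.24, *Xbp1* at 70.3 ± 7.81 and *Atf4* at 65.2 ± 1.41 followed, and neighbours in this order overlapped mouse by mouse. *Dnajb9* stood at 29.9 ± 2.94, apart from both neighbours. *Sdf2l1* at 16.7 ± 1.53 and *Ddit3* at 15.9 ± 1.23 overlapped each other, as did *Creb3l1* at 9.57 ± 1.69 and *Ern1* at 7.49 ± 0.640. *Ern2* was by far the lowest, at 0.061 ± 0.012, which rests on 11, 15 and 13 reads.

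Most of these transcripts were higher after IL-33, by very different amounts. In IL-33 mice compared with PBS mice, 7 of the 10 genes were called higher (*Ern1*, *Ern2*, *Xbp1*, *Hspa5*, *Sdf2l1*, *Pdia6* and *Dnajb9*), *Ddit3* and *Atf4* were called lower, and *Creb3l1* did not pass. Among all 16831 genes tested, 27.4% were called higher and 27.2% lower. The median log2 fold change was 0.38 over the 10 genes and -0.0053 over all genes tested. Only *Ern2* and *Sdf2l1* reached a 2-fold rise, 2 of 10, where 10.8% of all genes tested did. FPKM of the IL-33 mice lay wholly above that of the PBS mice for 7 genes and wholly below it for 2, against 31.7% and 31.7% of all genes tested, and only *Xbp1* overlapped.

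**Figure D1:**
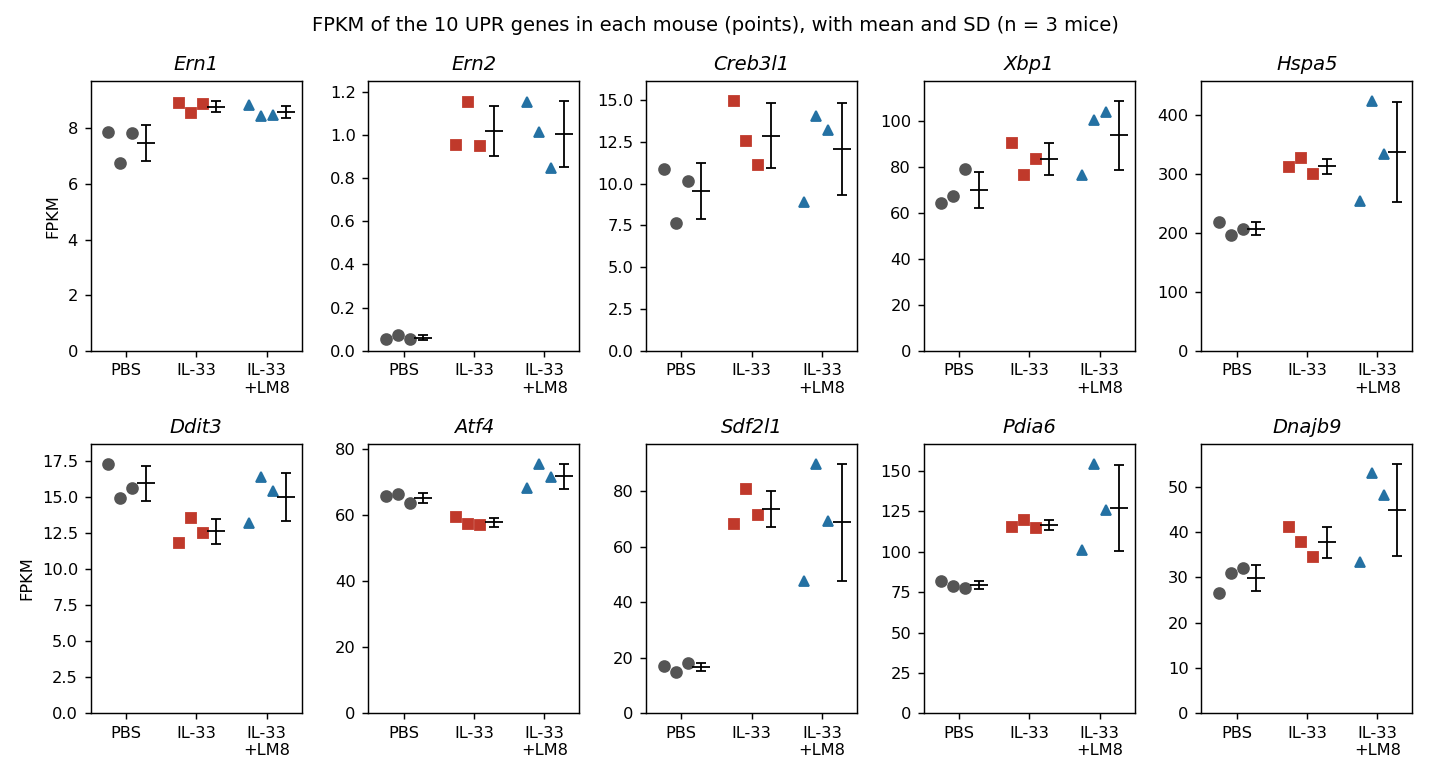
FPKM (vertical axes, from 0, each gene on its own scale) of the 10 UPR genes in each mouse, with points for PBS, IL-33 and IL-33+LM8 mice and, beside them, the mean and SD (n = 3). *Ern2* rose from a mean of 0.061 to 1.02, *Sdf2l1* from 16.7 to 73.5, and the IL-33+LM8 mice spread more widely than the IL-33 mice for the chaperone genes.

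Of the sensors, *Ern2* had the largest change of all 10 genes and *Ern1* one of the smallest. *Ern2* had FPKM of 0.055, 0.074 and 0.053 in the PBS mice and 0.951, 1.15 and 0.948 in the IL-33 mice, from 193, 215 and 159 reads. The lowest IL-33 mouse was more than 10 times the highest PBS mouse. Its log2 fold change was 3.98 (SE 0.26, 95% confidence interval 3.36 to 4.60), a fitted rise of 15.8-fold, with an adjusted p of 2.0e-05. It was called under every alternative fit in which *Ern2* was tested. The widely expressed paralog *Ern1* went from 7.88, 6.75 and 7.82 FPKM in PBS mice to 8.91, 8.56 and 8.90 in IL-33 mice. The groups did not overlap, but the log2 fold change was only 0.23 (SE 0.07, adjusted p = 0.029). It missed the threshold without IL-33 replicate 1 (adjusted p = 0.0685), without IL-33 replicate 3 (0.0682), or with no filter on low values (0.0658).

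Set against *Ern1* in the same mouse, *Ern2* changed from about 1% to about 10% of the *Ern1* level. The *Ern2* FPKM was 0.702%, 1.10% and 0.677% of the *Ern1* FPKM in the PBS mice and 10.7%, 13.5% and 10.7% in the IL-33 mice. *Ern1* was the more abundant transcript in every lung. The mean log2 ratio rose by 3.84, from -6.95 ± 0.39 to -3.12 ± 0.19 (SD, n = 3; exact permutation test, two-sided, p = 0.1, the smallest that 3 against 3 can give). No stretch of 31 bases is shared between *Ern1* and *Ern2* transcripts in the GENCODE M21 annotation, so reads of one are not reads of the other over such a length.

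Of the transcription factors, none changed by as much as 2-fold. *Xbp1* had FPKM of 64.4, 67.3 and 79.1 in PBS mice and 90.6, 76.7 and 83.7 in IL-33 mice, with 1 IL-33 mouse below the highest PBS mouse. Its log2 fold change of 0.25 (SE 0.09) sat at the threshold (adjusted p = 0.0490), and the call held in 5 of 15 alternative fits. It was lost without PBS replicate 1 (adjusted p = 0.135) or 2 (0.13), and without IL-33 replicate 1 (0.141) or 3 (0.115).

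*Creb3l1* lay at 10.9, 7.66 and 10.2 FPKM in PBS mice and at 15.0, 12.5 and 11.1 in IL-33 mice. Every IL-33 mouse was above every PBS mouse, and the log2 fold change was 0.42 (SE 0.16), yet the adjusted p was 0.0555. The gene passed without PBS replicate 1 (0.0386) or IL-33 replicate 3 (0.0468).

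*Atf4* and *Ddit3*, which act in the PERK arm, moved the other way. *Atf4* FPKM was 65.7, 66.3 and 63.6 in PBS mice and 59.3, 57.2 and 56.8 in IL-33 mice, a small but tight decrease (log2 fold change -0.18, SE 0.04, adjusted p = 0.0111). *Ddit3* FPKM was 17.3, 14.9 and 15.6 in PBS mice and 11.8, 13.5 and 12.5 in IL-33 mice, with no overlap (log2 fold change -0.34, SE 0.09, adjusted p = 0.0186). The *Atf4* call was lost without IL-33 replicate 3 (adjusted p = 0.0547). The *Ddit3* call was lost without PBS replicate 1 (0.053) and also without IL-33 replicate 1 (0.0629) or 3 (0.0612). *Ddit3* overlaps *Mars1*, a gene on the opposite strand with a mean FPKM of 15.3 over all mice, and since strand use in the counting is not stated, reads of the pair may not be separated.

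The 4 genes of the folding machinery were called higher. *Sdf2l1* had FPKM of 16.9, 15.0 and 18.0 in PBS mice and 68.3, 80.6 and 71.5 in IL-33 mice. The gap between the groups was far wider than the spread within either, and the log2 fold change was 2.14 (SE 0.10, 95% confidence interval 1.91 to 2.37), a fitted 4.40-fold rise with an adjusted p of 4.3e-06. *Hspa5*, the chaperone that all 3 sensors bind, was at 219, 195 and 207 FPKM in PBS mice and at 312, 326 and 299 in IL-33 mice. This was a log2 fold change of 0.59 (SE 0.07, adjusted p = 0.00029). In FPKM, the mean gain of *Hspa5* was still the largest of the 10 genes, from 207 to 312. *Pdia6* went from 81.9, 78.5 and 77.6 to 115.0, 119.9 and 114.7 FPKM, a log2 fold change of 0.55 (SE 0.05, adjusted p = 0.000102). The SD of *Pdia6* was under 3% of the mean in both groups. *Dnajb9*, a co-chaperone of BiP, went from 26.6, 30.9 and 32.2 to 41.2, 37.7 and 34.4 FPKM. Here the lowest IL-33 mouse was just above the highest PBS mouse (log2 fold change 0.34, SE 0.09, adjusted p = 0.0134). The call was lost in the joint fit of all 9 mice (adjusted p = 0.0922). *Dnajb9* shares 10.8% of its 31-base stretches with the pseudogene *Gm6568*, which had at most 13 reads in any mouse, and *Pdia6* overlaps *Atp6v1c2* on the opposite strand (mean FPKM 14.9 over all mice).

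**Figure D2:**
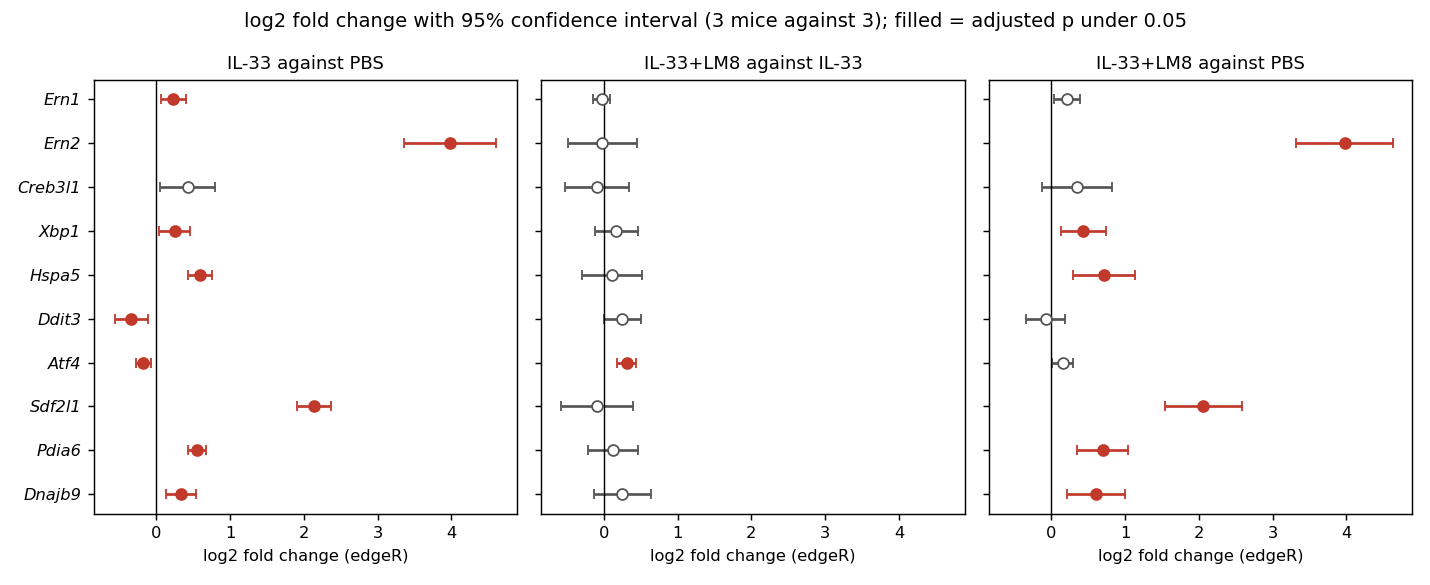
Fitted log2 fold change (horizontal axis) of each gene in the 3 comparisons, with the 95% confidence interval; filled points had an adjusted p under 0.05. *Ern2* at 3.98 and *Sdf2l1* at 2.14 stood apart in IL-33 against PBS, and only *Atf4* at 0.31 was called between the IL-33+LM8 and IL-33 mice.

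None of the 10 genes was called lower when LM8 was added to IL-33, which for 10 genes is not far from the share of all genes tested. In IL-33+LM8 mice compared with IL-33 mice, 1 of the 10 genes was called higher (*Atf4*) and 0 lower, where 12.6% of all 16831 genes tested were called higher and 13.9% lower. At an unadjusted p under 0.05 no UPR gene was lower either, and DESeq2 and limma likewise called 0 lower. FPKM did not overlap for *Atf4* alone, and for no gene in the lower direction, against 21.2% of all genes tested above and 22.0% below. The median log2 fold change of the 10 genes was 0.12, and that of all genes tested was -0.0062. Fits that miss the threshold do not show equal levels, so the intervals are given below.

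*Ern2* FPKM was 1.15, 1.01 and 0.848 in the IL-33+LM8 mice, from 214, 195 and 237 reads, with 1 mouse below the IL-33 group. The log2 fold change was -0.02, with a 95% confidence interval from -0.49 to 0.45. The *Ern2* level was 13.0%, 12.0% and 9.97% of that of *Ern1*, and the mean log2 ratio differed from that of IL-33 mice by 0.0071 (exact permutation test, two-sided, p = 1). *Ern1* itself stood at 8.85, 8.45 and 8.50 FPKM (log2 fold change -0.03, interval -0.15 to 0.09).

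*Sdf2l1* FPKM was 47.5, 89.6 and 69.1 in the IL-33+LM8 mice, which placed 1 mouse below and 1 above the whole IL-33 group. Its log2 fold change was -0.09 with an interval from -0.59 to 0.40. *Hspa5* was at 254, 423 and 333 FPKM, with 1 mouse below and both others above the whole IL-33 group (log2 fold change 0.11, interval -0.29 to 0.51). *Pdia6* was at 100.8, 154.4 and 126.0 FPKM (0.13, interval -0.21 to 0.46), and *Dnajb9* at 33.4, 53.0 and 48.3 (0.25, interval -0.13 to 0.63). The SD was 30.7% of the mean for *Sdf2l1* and 25.1% for *Hspa5* in this group, against 8.70% and 4.23% in IL-33 mice.

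*Xbp1* was at 76.7, 101 and 104 FPKM, with 1 mouse level with the lowest IL-33 mouse and both others above the highest (log2 fold change 0.17, interval -0.12 to 0.46). *Creb3l1* was at 8.91, 14.1 and 13.2 FPKM (log2 fold change -0.09, interval -0.52 to 0.34). *Atf4* was at 68.1, 75.5 and 71.5 FPKM, above all IL-33 mice, with a log2 fold change of 0.31 (SE 0.06, adjusted p = 0.0057). It was called in 15 of 15 alternative fits, with adjusted p between 1.8e-05 and 0.0263. *Ddit3* was at 13.2, 16.4 and 15.4 FPKM, with 1 mouse inside the IL-33 range, and its log2 fold change of 0.25 (SE 0.11) was not called (adjusted p = 0.133). *Atf4* and *Ddit3* were lower in the same IL-33 mice against PBS, so the 2 comparisons share their IL-33 mice and are not independent.

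**Figure D3:**
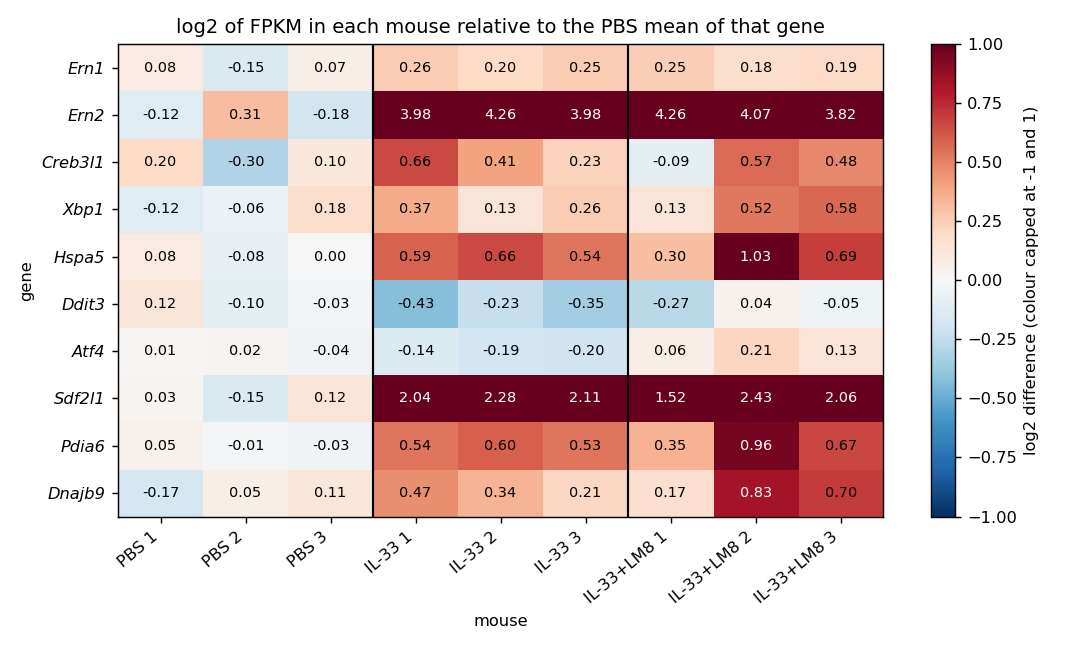
log2 of each gene's FPKM in each mouse (columns) relative to the PBS mean of that gene (rows); each cell gives the value, and the colour is capped at -1 and 1. IL-33+LM8 replicate 1 is lower than replicates 2 and 3 for *Hspa5* (0.30 against 1.03 and 0.69) and, past the cap of the colour, for *Sdf2l1* (1.52 against 2.43 and 2.06).

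The wide spread in the IL-33+LM8 group followed the mouse. IL-33+LM8 replicate 1 was the lowest of its group for 8 of the 10 genes (80%), where it was the lowest for 35.2% of all genes tested. Replicate 2 was the highest for 7 of the 10 genes (70%), against 34.4% of all genes tested. *Ern1* and *Ern2* were the exceptions, with replicate 1 the highest mouse for both. The same order held in the wider ER lists described next, where replicate 1 was lowest for 67 of 74 genes (90.5%) and replicate 2 highest for 59 (79.7%). It also held in the heat shock genes outside the ER, with replicate 1 lowest for 9 of 10 and replicate 2 highest for 10 of 10. In the IL-33 group the heat shock genes had an order too, with replicate 2 highest for 10 of 10 and replicate 3 lowest for 9 of 10. Total counts of IL-33+LM8 replicates 1, 2 and 3 were 59753648, 62104126 and 90607218, and the part of depth in this order was not tested.

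Without IL-33+LM8 replicate 1, 4 of the 10 genes were called higher than in IL-33 mice: *Dnajb9* (log2 fold change 0.43, adjusted p = 0.0122), *Xbp1* (0.30, 0.0313), *Ddit3* (0.34, 0.047) and *Atf4* (0.35, 0.0041). This fit rests on 2 mice in the LM8 group, and 10.8% of all genes tested were then called higher and 12.4% lower. Of the 10 genes, 0 were called lower.

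Against PBS mice, the IL-33+LM8 mice had 6 of the 10 genes called higher (*Ern2*, *Xbp1*, *Hspa5*, *Sdf2l1*, *Pdia6* and *Dnajb9*) and 0 lower, where 16.3% of 16829 genes tested were called higher and 13.4% lower. 2 of 10, *Ern2* and *Sdf2l1*, rose at least 2-fold, against 5.87% of all genes tested. FPKM lay wholly above PBS for 7 genes and wholly below for 0, against 23.4% and 23.9% of all genes tested. The log2 fold change was 3.98 for *Ern2* (SE 0.28, adjusted p = 0.000138) and 2.06 for *Sdf2l1* (SE 0.22, adjusted p = 0.00079). *Hspa5* rose by 0.72 (SE 0.18, adjusted p = 0.0225), *Pdia6* by 0.69 (SE 0.15, adjusted p = 0.0125), *Dnajb9* by 0.60 (SE 0.17, adjusted p = 0.0322) and *Xbp1* by 0.43 (SE 0.13, adjusted p = 0.0442). *Ddit3* (log2 fold change -0.07, adjusted p = 0.66), *Atf4* (0.15, 0.108), *Creb3l1* (0.35, 0.24) and *Ern1* (0.21, 0.0731) did not pass. With the replicate number as a block, *Ern1* passed too (log2 fold change 0.22, adjusted p = 0.0357), making 7 genes higher, with 20.1% of all genes tested then called higher and 18% lower. The PBS mice are the same as in the first comparison.

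With 5 mice in place of 6, calls against PBS were lost for 3 of these genes, with no change of sign in those 3. *Hspa5* missed the threshold without any 1 of the 3 PBS mice (adjusted p = 0.0543, 0.0711 and 0.0605 without replicates 1, 2 and 3) or without IL-33+LM8 replicate 3 (0.0582), at log2 fold changes of 0.69 to 0.77 in these fits. *Xbp1* missed it without PBS replicate 1 (0.137) or 2 (0.127) or without IL-33+LM8 replicate 2 (0.138) or 3 (0.13). *Dnajb9* missed it without any 1 PBS mouse (0.106, 0.0794 and 0.0549) or without IL-33+LM8 replicate 2 (0.1) or 3 (0.0921). Even with all 6 mice, *Xbp1* and *Dnajb9* missed it with no filter on low values (0.0772 and 0.0537). They also missed it in both limma fits (0.0687 and 0.0693 for *Xbp1*, 0.0567 and 0.0573 for *Dnajb9*). Of 15 alternative fits, 11 called *Hspa5*, 8 *Xbp1* and 7 *Dnajb9*. With all 6 mice and the replicate block, the adjusted p was 0.0231 for *Hspa5*, 0.00806 for *Xbp1* and 0.00554 for *Dnajb9*. No label states the pairing that this block assumes. *Ern2*, *Sdf2l1* and *Pdia6* were called with any 1 mouse left out.

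The rest of the pathway was followed in 8 lists of related genes, none of which contains the 10 genes above. *Creb3l3* and *Fgf21* fell under the filter. These lists too were chosen with earlier results of these data known. 5 of the lists hold ER protein-handling genes, 74 in all. After IL-33, 51 of the 74 were called higher and 3 lower, with a median log2 fold change of 0.38; with LM8 added the counts were 4 and 6 against IL-33 mice (median -0.02) and 41 and 0 against PBS mice (median 0.37). The shares of all genes tested, given above, were 27.4% and 27.2% after IL-33, 12.6% and 13.9% with LM8 against IL-33, and 16.3% and 13.4% with LM8 against PBS, and the counts of each list are to be read against them. The 4 and 6 of 74 lay below these shares, but depended on single mice. Without IL-33+LM8 replicate 1, 12 were higher and 5 lower, where 10.8% and 12.4% of all genes tested were called. Without replicate 2, 4 were higher and 14 lower, where 12.3% and 13.6% were called. With the replicate block, the comparison with PBS gave 49 higher and 1 lower, where 20.1% and 18% of all genes tested were called.

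Of the 15 ER chaperones and co-chaperones, 11 were higher after IL-33, 0 were lower, and 4 did not pass. *Dnajb11*, a BiP co-chaperone, rose from a mean FPKM of 27.7 to 47.3 (log2 fold change 0.77), and *Ppib*, a prolyl isomerase, from 40.9 to 70.2 (0.78). *Dnajc3*, another co-chaperone of BiP, had means of 51.4 and 51.8 (log2 fold change 0.01, adjusted p = 0.92). With LM8, 0 of the 15 were called against IL-33 (3 higher without IL-33+LM8 replicate 1, and 1 lower without replicate 2), and 9 were higher than in PBS mice.

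Of the 13 disulfide isomerases and oxidative folding genes, 11 were higher and 0 lower after IL-33, the highest list median of the 8 (0.61). *Prdx4*, an ER peroxiredoxin, rose from 11.1 to 35.4 FPKM (log2 fold change 1.68) and *Erp29* from 5.50 to 11.9 (1.11). Both fell under LM8 against IL-33, by 0.90 and 0.38 on the log2 scale (adjusted p = 0.0042 and 0.015), and were among the 3 genes of the list called lower there. *Agr2*, the isomerase that goblet cells need for mucin folding, was singled out after its values were seen. Its FPKM went from 0.760, 1.96 and 1.17 in PBS mice to 17.8, 18.3 and 12.7 in IL-33 mice and 11.9, 35.5 and 23.1 in IL-33+LM8 mice (log2 fold change 3.64 and 4.19 against PBS). Against PBS, 9 of the 13 were higher with LM8.

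Translocation and signal peptide cleavage genes, which bring new chains into the ER, were higher for 12 of 15 and lower for 2 after IL-33. *Sec11c*, of the signal peptidase, rose from 5.09 to 12.3 FPKM (log2 fold change 1.27) and *Spcs3*, of the same complex, from 22.5 to 41.9 (0.89), while *Sec62* fell from 49.9 to 35.1 (-0.51). Under LM8, *Sec11c* was lower than in IL-33 mice (-0.45, adjusted p = 0.016) and *Sec62* higher (0.34, adjusted p = 0.0024), 2 higher and 1 lower in all, and 12 of 15 were higher than in PBS mice.

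ER-associated degradation genes, which retrieve misfolded proteins, were higher for 8 of 15 and lower for 1 after IL-33. *Derl3* rose from 0.995 to 5.64 FPKM (log2 fold change 2.48), the largest change of this list, and *Edem2* from 13.4 to 21.3 (0.67). *Selenos* was the 1 called lower (-0.15, adjusted p = 0.048) and was 0.42 higher under LM8 than in IL-33 mice (adjusted p = 0.014). LM8 gave 2 higher and 1 lower against IL-33, and 7 higher against PBS.

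ER exit and retrieval genes were higher for 9 of 16 and lower for 0 after IL-33. *Sec23b*, a coat protein of ER exit vesicles, rose by 0.44 and *Kdelr2*, which returns escaped ER proteins, by 0.45 on the log2 scale. *Sec24a*, 0.28 higher after IL-33, was lower with LM8 than in IL-33 mice (-0.37, adjusted p = 0.0082), the 1 call of the list there. With median-of-ratios factors or library totals alone, 2 genes of the list were also called higher in that comparison, and 3 without IL-33+LM8 replicate 1, while 2 were lower and 0 higher without replicate 2. Against PBS, 4 of 16 were higher with LM8, and 7 with the replicate block.

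The list of sensors and ER-anchored factors other than the 10 genes also holds proteases and cytosolic kinases that are neither. Of its 11 tested genes, 4 were called higher and 4 lower after IL-33, not far from the 27.4% and 27.2% of all genes tested. *Atf6*, the third sensor, fell from a mean of 11.7 to 9.36 FPKM (log2 fold change -0.32) and *Mbtps1*, the protease that cuts it, from 17.5 to 13.9 (-0.34). *Eif2ak2*, which encodes the double-stranded RNA kinase PKR, rose from 6.35 to 9.44 (0.57). Against the same IL-33 mice, with LM8 added, *Atf6* was 0.33 and *Mbtps1* 0.17 higher and *Eif2ak2* lower (-0.39, adjusted p = 0.017), the 2 higher and 1 lower calls of the list. Against PBS, 3 of 11 were higher and 0 lower with LM8.

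Targets of ATF4 and CHOP were higher for 9 of 18 and lower for 4 after IL-33. *Slc7a11*, a cystine transporter, rose from 0.115 to 3.33 FPKM (log2 fold change 4.84, adjusted p = 1.0e-06), more than *Ern2*. Like *Ern2*, it entered the tests only through the groups given IL-33. It was the list gene that LM8 lowered most against IL-33, to 0.820 FPKM (log2 fold change -2.02, adjusted p = 5.6e-05). *Vldlr*, a lipoprotein receptor, fell from 7.71 to 2.91 FPKM (-1.41). *Atf4* itself was lower in the same mice. LM8 gave 5 higher and 3 lower against IL-33, and 10 higher and 3 lower against PBS.

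Heat shock genes outside the ER, of the cytosol and the mitochondria, were higher for 1 of 10 after IL-33 (*Hspe1*, 0.38, a mitochondrial one). They were lower for 3, among them *Hsp90aa1* (-0.54, from 282 to 195 FPKM). Of all genes tested 27.4% were higher and 27.2% lower, so 3 of 10 lower is near the background. The list median was -0.13. With LM8, 0 of 10 were called against IL-33 and 1 against PBS (*Dnajb1*, -0.39, lower).

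**Figure D4:**
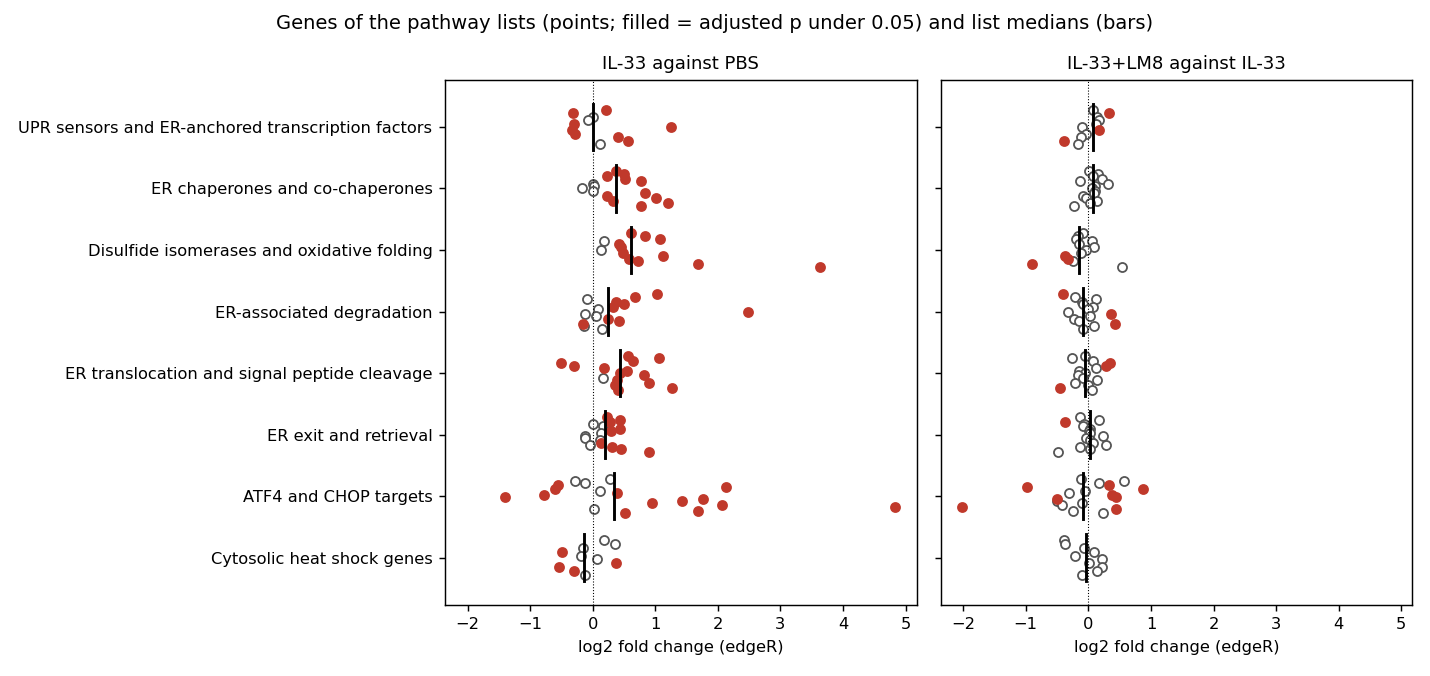
Fitted log2 fold change (horizontal axis) of every tested gene of the 8 pathway lists (rows) for IL-33 against PBS (left) and IL-33+LM8 against IL-33 (right); filled points had an adjusted p under 0.05, and bars mark list medians. The disulfide isomerase median was 0.61 after IL-33, while the medians of the right panel lay near 0.

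The levels of secretory cell markers moved in these lungs as well. Goblet cell markers were higher for 5 of the 6 tested after IL-33 (*Muc5ac*, *Muc5b*, *Clca1*, *Spdef* and *Fcgbp*, with *Tff2* not passing and *Foxa3* under the filter). Their summed FPKM was 9.91 to 27.8 in PBS mice, 445 to 492 in IL-33 mice and 534 to 554 in IL-33+LM8 mice, most of it from *Clca1* in the 2 groups given IL-33. *Muc5ac*, a secreted mucin, was the 1 goblet gene lower under LM8 than in IL-33 mice (log2 fold change -1.04), and *Clca1* the 1 higher (0.23). All 6 were higher than in PBS mice. *Ern2*, like the goblet sum, was far higher in both IL-33 groups than in PBS mice.

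Plasma cell markers were higher for 6 of 7 after IL-33 (*Jchain*, *Mzb1*, *Pou2af1*, *Ighg1*, *Igha* and *Igkc*, with *Tnfrsf17* not passing). Each of these 6 was lower under LM8 against IL-33, and 2 of the 7, *Pou2af1* and *Igkc*, were higher than in PBS mice. Their summed FPKM was 321 to 338 in PBS mice, 1447 to 1572 in IL-33 mice and 413 to 466 in IL-33+LM8 mice. *Xbp1*, *Sdf2l1* and *Hspa5* were not called lower in IL-33+LM8 mice against IL-33 mice, in whose lungs the plasma cell sum was at its highest. No gene of the goblet or plasma cell lists was at 0 in all mice. The part that either cell type had in the UPR values was not tested.

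**Figure D5:**
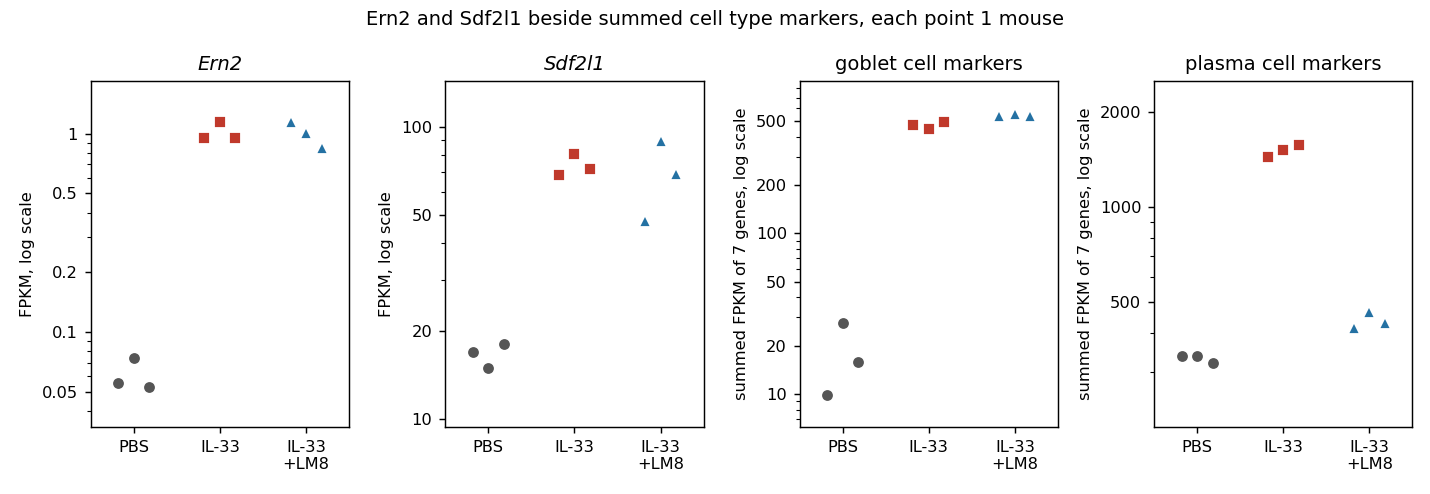
FPKM of *Ern2* and *Sdf2l1* and summed FPKM of 7 goblet cell and 7 plasma cell markers (log axes), 1 point per mouse. *Ern2* and *Sdf2l1* were high in both IL-33 groups, as was the goblet sum (445 to 554), while the plasma cell sum was between 413 and 466 in IL-33+LM8 mice against 1447 or more in IL-33 mice.

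Other cell types moved too. After IL-33, markers were higher for 4 of 4 in B cells and for all 4 tested in eosinophils. Of the 5 eosinophil genes, 1 fell under the filter, and *Epx* was at or under the floor of 3 reads in every PBS mouse. Markers were also higher for 5 of 5 in neutrophils and 4 of 6 in macrophages (2 lower). They were lower for 4 of 4 in club cells, 3 of 4 in ciliated cells, 4 of 6 in alveolar type 2 cells, 3 of 5 in endothelial cells and 4 of 6 in fibroblasts (2 higher). Under LM8 against IL-33, B cell and eosinophil markers were lower for 4 of 4 each and macrophage markers for 4 of 6 (1 higher). Those of club cells (4 of 4), ciliated cells (2 of 4), alveolar type 2 cells (3 of 6), endothelial cells (5 of 5) and neutrophils (5 of 5) were higher, and fibroblasts had 2 higher and 2 lower. Neutrophil markers summed to 17.2 to 23.1 FPKM in PBS mice, 67.3 to 86.6 in IL-33 mice and 673 to 783 in IL-33+LM8 mice. Against PBS, IL-33+LM8 mice had higher and lower markers in B cells (4 and 0 of 4), eosinophils (2 and 1 of 4), neutrophils (5 and 0 of 5), macrophages (4 and 1 of 6), club cells (0 and 2 of 4), ciliated cells (0 and 1 of 4), alveolar type 2 cells (0 and 3 of 6), endothelial cells (1 and 2 of 5) and fibroblasts (0 and 3 of 6).

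The genes whose profiles were nearest to those of the 2 genes that rose at least 2-fold were sought among 16830 other genes over the 9 mice. The measure was the root mean square difference of log2(FPKM + 1), centred on each gene's mean. Nearest to *Ern2* were *Pygl* (0.080), *Gm47171* (0.089), *Sbno2* (0.090), *Mlph* (0.098) and *Rasgrp4* (0.098). The added 1 compresses a gene as low as *Ern2*, so these genes have smaller fitted changes, from a log2 fold change of 0.89 for *Pygl* to 1.89 for *Gm47171*. Nearest to *Sdf2l1* were *Tnfrsf8* (0.116), *Il2ra* (0.122), *Cd209e* (0.152), *Cyp7b1* (0.172) and *Fxyd4* (0.223). None of these 10 neighbours was called between the IL-33+LM8 and IL-33 mice. This follows from the choice of neighbours, which used the mice of both groups.

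By the positions that the deposited table lists, which are not those of GRCm38 and come with no named build, *Ern2* (ENSMUSG00000030866) spans 121769116 to 121785430 on the minus strand of chromosome 7 and *Ern1* (ENSMUSG00000020715) 106285476 to 106378662 on the minus strand of chromosome 11. *Xbp1* lies on the same chromosome, at 5470659 to 5475893 on the plus strand. *Sdf2l1* spans 16948002 to 16950247 on the minus strand of chromosome 16. *Hspa5* (34661982 to 34667559, plus strand) and *Creb3l1* (91812673 to 91854847, minus strand) are both on chromosome 2. *Pdia6* (17316546 to 17334771, plus strand) and *Dnajb9* (44252342 to 44257109, minus strand) are both on chromosome 12. *Ddit3* lies at 127126643 to 127132157 on the plus strand of chromosome 10, and *Atf4* at 80139385 to 80141742 on the plus strand of chromosome 15. *Ddit3* has a second entry in the table, with 1 read in 1 mouse, which was not used.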

How the data were processed

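Lung RNA of 9 mice was read from both ends on a NovaSeq 6000, and the authors deposited for each mouse a read count per gene and the FPKM per gene (reads relative to gene length and library size). The submitters' processing notes list Bowtie 0.12.2, HISAT2 2.0 and StringTie 1.3.0 with the build mm10. The counter, the annotation and the use of strand are not given in the sources used here. A mapping that splits or drops reads shared with a copy would lower a gene's count. Reads carry no molecular identifiers, so the floor of 3 reads covers counting error only. Every column of the table belonged to a labelled mouse, and the table holds no comparisons by the authors.

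Counts were fitted with edgeR 4.0.16 (R 4.3.3; TMM normalization, quasi-likelihood test, Benjamini-Hochberg adjustment over all genes tested) on the 6 mice of each comparison. Tests covered genes whose FPKM averaged 0.5 or more across the 9 mice and that had a read in the 6. Standard errors are the log2 fold change divided by the square root of F. DESeq2 1.42.0 and limma 3.58.1 were alternatives, with other scalings, filters and pseudocounts, a joint fit of the 9 mice, the replicate number as a block, and the omission of single mice. In simulated data, where 200 genes were changed, edgeR found 56 of 99 changed by 1 and 89 of 100 changed by 2 on the log2 scale, with 11 false calls among 16824 genes. The simulation changed a far smaller share of genes than was called after IL-33, so its recovery does not carry over to these data. Between libraries of a group, chi-square per gene was 24.1 or more, so none was a copy of another.

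The labels give every group the replicate numbers 1 to 3. The correlation of deviations between same-numbered mice was 0.307, 0.322 and 0.672 for PBS and IL-33+LM8, and between -0.419 and 0.280 in the other comparisons. By the rule that every correlation exceed 0.1, the numbers would pair PBS with IL-33+LM8 mice only. The main fits used no block in any comparison, and the block was an alternative. Differently numbered mice also correlated, at 0.647 for PBS 3 with IL-33 1 and 0.669 for IL-33 1 with IL-33+LM8 3. Between PBS and IL-33+LM8 mice the values were 0.198 for PBS 1 with IL-33+LM8 2 and 0.169 for PBS 2 with IL-33+LM8 1. The other differently numbered pairs of these groups lay between -0.437 and -0.375. The correlations therefore do not establish a pairing. No label says what a number shares.

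The 10 genes, the 8 pathway lists and the 11 cell type lists were chosen with earlier results of these data known. 174 listed genes were in the table; *Ero1l*, *Ero1lb*, *Vimp* and *Igj* were found under newer symbols. Besides the 10 genes, those named are, from each pathway list, the 2 with the smallest adjusted p in IL-33 against PBS and the 1 with the smallest in IL-33+LM8 against IL-33; every goblet and plasma cell marker; the most abundant gene of each other marker list, where a result uses it; and the 5 nearest profiles of each gene called with at least 2-fold change. *Agr2* and *Epx* were picked once their values were known, and *Mars1*, *Atp6v1c2* and *Gm6568* because they overlap or resemble one of the 10 genes.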

Additional observations from a re-analysis of the deposited data

How the results depend on the processing

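Among values of single UPR genes under the alternatives, 409 kept their direction and their side of the threshold, 50 kept the direction and lost the call, 10 gained a call and 8 changed sign. These counts include a minimum log2 fold change of 1 applied to the main fit. That rule can only keep or remove calls, so its part of the 409 and the 50 was fixed in advance. In IL-33 against PBS, *Ern2*, *Sdf2l1*, *Hspa5* and *Pdia6* were called under every alternative fit in which they were tested, the minimum fold change aside. A minimum log2 fold change of 1 left 2 UPR genes higher and 0 lower after IL-33, 0 higher in IL-33+LM8 against IL-33 and 2 higher in IL-33+LM8 against PBS. Of the 113 pathway list genes tested, of which 65 were higher and 14 lower after IL-33, that minimum left 17 higher and 1 lower, then 0 higher and 1 lower, then 9 higher and 0 lower, which follows from the stricter rule. DESeq2 called 7 list genes lower in IL-33+LM8 against PBS, where edgeR called 4. Adding 0.1 to each FPKM gave 2.56 and 2.57 for the log2 ratio of *Ern2* to *Ern1* against PBS, without and with LM8, since 0.1 is above every *Ern2* FPKM of the PBS mice.

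With each mouse left out in turn, UPR genes called higher and lower after IL-33 numbered 5 to 7 and 0 to 2, and called higher with LM8 1 to 4 against IL-33 and 3 to 6 against PBS. List genes in IL-33+LM8 against IL-33 numbered 7 to 17 higher and 5 to 21 lower. The 7 came on omitting IL-33 replicate 1 or IL-33+LM8 replicate 3, the 17 on omitting IL-33+LM8 replicate 1. The 5 came on omitting IL-33 replicate 3, the 21 on omitting IL-33+LM8 replicate 2. The cause was not tested. All 8 changes of sign were of uncalled values near 0. For the comparison of IL-33+LM8 with IL-33, *Ern2* gave 0.081 when IL-33 replicate 2 was omitted and 0.101 when IL-33+LM8 replicate 3 was (range -0.125 to 0.101 over single omissions). *Creb3l1* gave 0.0302 when IL-33 replicate 1 was omitted and 0.0888 when IL-33+LM8 replicate 1 was (range -0.222 to 0.0888). Omitting IL-33+LM8 replicate 2 turned *Hspa5* to -0.0942 (range to 0.282) and *Pdia6* to -0.0441 (range to 0.272), and omitting replicate 1 turned *Sdf2l1* to 0.116 (range from -0.338). It also turned *Ddit3* against PBS to 0.0139 (range from -0.143).

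With the replicate number as a block, 1 UPR gene was lower after IL-33 (*Ddit3* lost, adjusted p = 0.06) and 7 were higher (*Creb3l1* gained, 0.0424; *Xbp1* lost, 0.0663). In IL-33+LM8 against IL-33, 1 was higher and 0 lower, as without the block. In every comparison the mice are known to share only a number. In IL-33+LM8 against PBS the block changed no UPR gene call but that of *Ern1*. At the depth of these libraries, *Ern2* in PBS mice rests on at most 15 reads.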
